A study of Mus musculus with 10 samples.

Results

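The enzymes that make and break down retinoic acid were read in periotic tissue of mouse embryos that lack Tbx1 in the mesoderm. The 8 enzymes are Rdh10, Aldh1a1, Aldh1a2, Aldh1a3, Dhrs3, Cyp26a1, Cyp26b1 and Cyp26c1, of 19938 genes that the arrays could name. A probe set was taken where its platform annotation gave 1 of these symbols, and each gene had 1 such probe set.

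The 10 arrays came from single embryos at embryonic day 12.5. The 5 mutants were T-Cre conditional Tbx1 knockouts, and the 5 controls were T-Cre conditional Tbx1 heterozygotes, so all embryos carried T-Cre, and the controls are conditional heterozygotes rather than wild type. T-Cre is a recombinase active in the early mesoderm, so the otic epithelium keeps its Tbx1. Left and right otic vesicle and the mesenchyme around it were pooled within an embryo, and in such bulk tissue fewer cells of a type and less RNA per cell cannot be told apart.

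Retinoic acid is a hormone-like signal made from vitamin A. Rdh10 oxidises retinol to retinal, the Aldh1a enzymes oxidise retinal to retinoic acid, and Dhrs3 turns retinal back into retinol. The Cyp26 enzymes are cytochromes P450 that inactivate retinoic acid, which then cannot activate its nuclear receptors. In the mouse ear, retinoic acid shapes the otic vesicle and its capsule, and Tbx1 and retinoic acid are known to act on each other in the pharyngeal region of the embryo.

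Cyp26a1 is itself a classic target of retinoic acid, like the receptor gene Rarb, and the letters that the receptors are known to bind lay just before both starts. The 250 bases before each RefSeq start in GRCm38.p6 were searched on both strands for pairs of the half-sites AGGTCA, its variant AGTTCA, the variant GGGTCA and the variant GGTTCA in the same direction, with 1, 2 or 5 bases between. A repeat with 5 bases between was found for 28 of 27025 genes (0.104%), with 1 base for 0.196% and with 2 bases for 0.204%, and neither repeat below overlapped another. The windows of Cyp26a1 (chr19:37697558-37697807, plus strand) and Rarb (chr14:16575477-16575726, minus strand) are shown with the repeat in capitals.
Cyp26a1: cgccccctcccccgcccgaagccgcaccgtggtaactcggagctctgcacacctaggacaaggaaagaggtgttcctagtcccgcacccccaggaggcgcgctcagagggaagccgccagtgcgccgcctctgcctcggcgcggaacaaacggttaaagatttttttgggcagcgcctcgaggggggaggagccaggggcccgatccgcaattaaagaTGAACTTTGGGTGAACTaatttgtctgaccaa
Rarb: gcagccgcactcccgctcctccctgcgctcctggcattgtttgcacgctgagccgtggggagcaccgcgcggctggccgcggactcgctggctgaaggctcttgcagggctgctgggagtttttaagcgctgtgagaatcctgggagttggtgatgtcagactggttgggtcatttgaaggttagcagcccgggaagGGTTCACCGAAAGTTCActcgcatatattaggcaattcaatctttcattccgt

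The Cyp26a1 repeat ran from 32 to 16 bases before the start and reads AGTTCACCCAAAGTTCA on the opposite strand. The Rarb repeat ran from 53 to 37 bases before the start and reads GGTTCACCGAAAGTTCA on the strand of the gene. Of the 8 enzymes, 6 had a window in the RefSeq table (Cyp26a1, Cyp26b1, Cyp26c1, Aldh1a1, Aldh1a2 and Dhrs3). Cyp26a1 was the 1 of the 6 with any of these repeats, and a match is a description of letters, not a shown binding site. The retinoid pathway lists described below held 57 genes with a window. Of these, 1 (Rarb) had a repeat with 5 bases between, 1 had a repeat with 1 base and 0 with 2 bases, so most had none. Cyp26c1 is the next gene to Cyp26a1 on chromosome 19, with 0 genes listed between them.

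The targeted gene had the lower mean in the mutants, and the groups overlapped. The log2 signal of Tbx1 was 7.83 ± 0.36 in mutants (7.58 to 8.40) and 8.71 ± 0.31 in controls (8.23 to 9.01; SD, n = 5 each), with an exact permutation p of 0.0159 and a limma adjusted p of 0.451. Markers of the labelled tissue were present, with 10 of 10 periotic mesenchyme genes and 8 of 9 measured otic epithelium genes above background. So were 10 of 10 cartilage, 9 of 9 measured ganglion neuron, 8 of 8 endothelium and 8 of 8 skeletal myoblast genes. These counts therefore do not set the labelled tissue apart from others. Background here is a log2 signal of 5.46, the 95th percentile of the means of 1035 olfactory receptor probe sets. The 10 arrays correlated at 0.985 or more with each other.

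None of the 8 enzymes was called between mutants and controls. By limma 0 of 8 passed an adjusted p of 0.05, where 0.0100% of all genes did, and 0 of 8 passed at an unadjusted p of 0.05, where 7.82% did (4.70% higher and 3.11% lower in mutants). The unadjusted exact permutation p values of the 8 enzymes lay between 0.159 and 0.889. The groups of no enzyme stood apart without overlap, against 1.83% of all genes. Mutants had the higher mean for 4 enzymes (Aldh1a1, Aldh1a2, Aldh1a3 and Cyp26b1) and the lower mean for 4 (Rdh10, Dhrs3, Cyp26a1 and Cyp26c1), and the median log2 difference was -0.02 (-0.00210 over all genes). All 8 read above background on all 10 arrays, with log2 values between 5.87 and 10.53. For the 7 enzymes other than Aldh1a1 the 95% intervals of the mutant over control ratio lay between 0.713-fold and 1.49-fold.

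**Figure D1:**
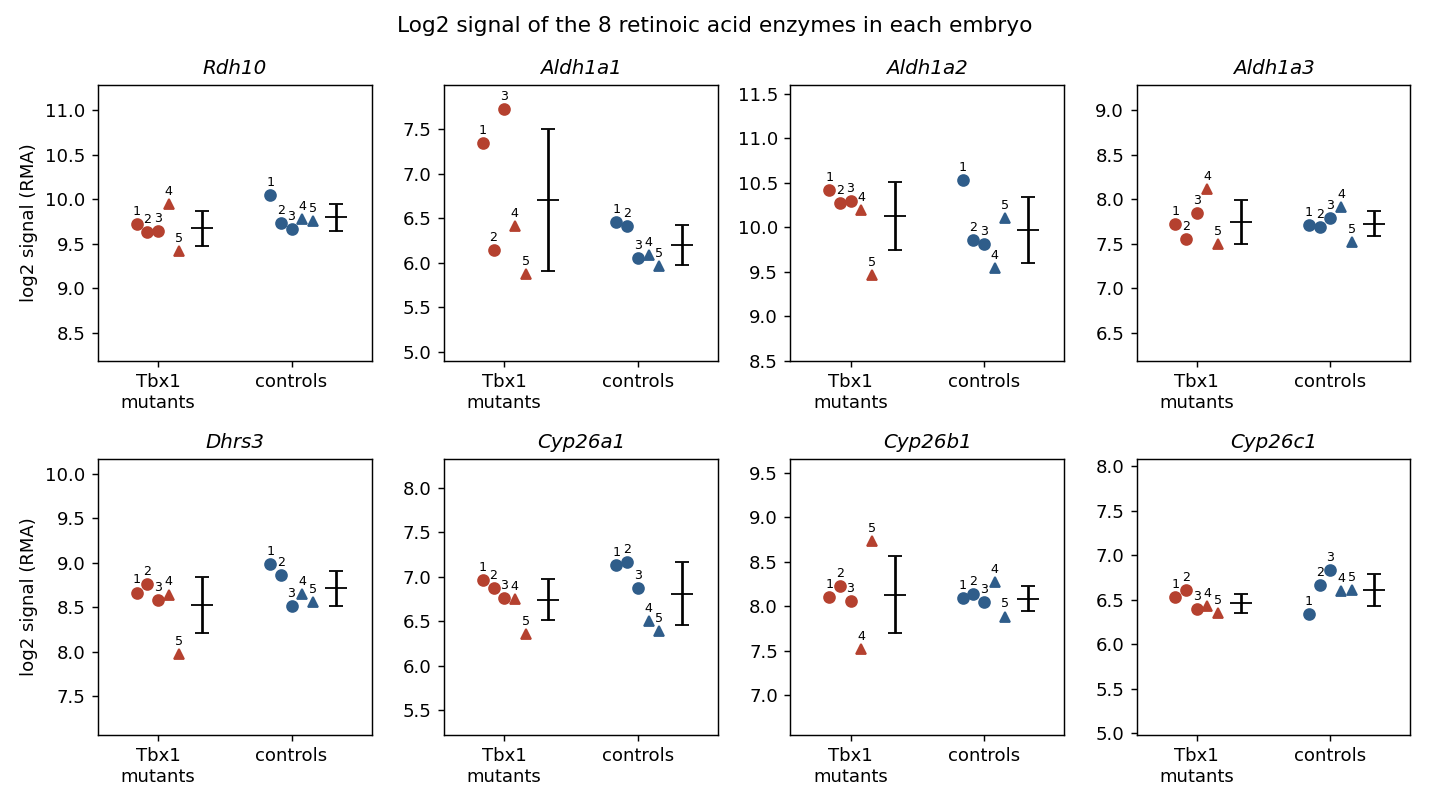
Log2 signal (RMA) of each enzyme in the 5 Tbx1 mutants (red, left) and 5 controls (blue, right), each panel with its own vertical position and the same span. Numbers are the replicate numbers, circles are arrays 1 to 3 and triangles arrays 4 and 5, and the bars give the mean and SD. The groups overlap in every panel, mutants 1 and 3 lie above all controls for Aldh1a1, and mutant 5 is the lowest array for 6 enzymes.

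Rdh10, which performs the first oxidation step, had log2 signals of 9.72, 9.64, 9.65, 9.95 and 9.42 in mutants 1 to 5. In controls 1 to 5 its signals were 10.06, 9.73, 9.67, 9.78 and 9.76. Mutants 2, 3 and 5 lay below the lowest control, and the other two lay within the control range. The log2 difference of Rdh10 was -0.13 ± 0.10 (SE, 95% interval -0.33 to 0.08), with a limma adjusted p of 0.744. It was -0.06 without mutant 5 or without control 1, and -0.19 without mutant 4 (interval -0.39 to -0.00246, limma adjusted p 0.618).

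Aldh1a1, a retinal dehydrogenase, showed the widest spread of the enzymes. Its log2 signals were 7.34, 6.15, 7.73, 6.41 and 5.87 in the mutants and 6.46, 6.41, 6.05, 6.08 and 5.97 in the controls. Mutants 1 and 3 stood above every control, mutants 2 and 4 lay within the control range, and mutant 5 lay below it. The log2 difference was 0.50 ± 0.30 (SE, interval -0.14 to 1.15), a ratio of 1.42-fold (0.908 to 2.21), with a limma adjusted p of 0.685. Without mutant 3 the difference was 0.25, and the embryos numbered 1 to 3 gave 0.76, those numbered 4 and 5 gave 0.11. That change between the 2 sets of numbers had a limma adjusted p of 1.00 (unadjusted 0.220).

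Aldh1a2, the main retinoic acid synthesis enzyme of embryonic mesoderm, had log2 signals of 10.41, 10.27, 10.29, 10.20 and 9.46 in the mutants. In the controls they were 10.53, 9.85, 9.81, 9.54 and 10.10. Mutants 1 to 4 lay close together above 4 of the 5 controls, while mutant 5 was the lowest of all 10 arrays. The log2 difference was 0.16 ± 0.19 (SE, interval -0.26 to 0.57), with a limma adjusted p of 0.848. Without mutant 5 it was 0.33 (interval 0.00330 to 0.65), with a limma adjusted p of 0.657, so Aldh1a2 was not called in either case.

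Aldh1a3, the third retinal dehydrogenase of this family, read 7.72, 7.55, 7.84, 8.12 and 7.49 in the mutants and 7.71, 7.69, 7.78, 7.91 and 7.52 in the controls. Mutant 4 lay above and mutant 5 just below the control range. Its log2 difference of 0.02 ± 0.11 (SE, interval -0.22 to 0.27) was the smallest of the 8.

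Dhrs3, the retinal reductase, which retinoic acid is known to induce, had log2 signals of 8.66, 8.76, 8.58, 8.64 and 7.97 in the mutants. In the controls they were 8.98, 8.85, 8.51, 8.65 and 8.56. Mutant 5 lay far below all other arrays and the remaining mutants lay within the control range. The log2 difference was -0.18 ± 0.14 (SE, interval -0.49 to 0.12), with a limma adjusted p of 0.742, and -0.05 without mutant 5.

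Cyp26a1 had log2 signals of 6.97, 6.87, 6.77, 6.75 and 6.36 in the mutants and 7.13, 7.16, 6.87, 6.50 and 6.39 in the controls. Its log2 difference was -0.07 with an interval of -0.41 to 0.28. In both groups the arrays numbered 4 and 5 were the lower ones, at 6.36 to 6.75, against 6.77 to 7.16 in those numbered 1 to 3. Nothing in the labels tells what equal numbers have in common. Fos, an immediate early gene that dissection can induce, read 5.49 to 5.91 in the 4 arrays of the higher numbers and 8.82 to 9.08 in the other 6. Within genotype Cyp26a1 differed by -0.46 ± 0.10 (SE) between these array sets, with an unadjusted limma p of 0.000683 and an adjusted p of 0.108, so it was not called. In the same fit Aldh1a1 differed by -0.61 ± 0.26, Aldh1a2 by -0.37 ± 0.17 and Dhrs3 by -0.27 ± 0.12 (SE). Their unadjusted limma p values were 0.0354, 0.0501 and 0.0501, and their adjusted p values 0.365, 0.407 and 0.407. The remaining enzymes differed by -0.07 to 0.04. By this test 0.191% of all genes and 0 of the 8 enzymes were called. The array sets did not overlap for 2.73% of genes, and among the 8 enzymes for Cyp26a1 alone. The mutant minus control difference of Cyp26a1 was 0.11 within the 4 arrays and -0.19 within the 6.

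Cyp26b1, the P450 that limits retinoic acid in many embryonic tissues, read 8.11, 8.23, 8.06, 7.52 and 8.74 in the mutants and 8.09, 8.14, 8.05, 8.27 and 7.89 in the controls. Mutant 5 was the highest and mutant 4 the lowest of all arrays, while mutants 1 to 3 lay within the control range. The SD was 0.43 in the mutants and 0.14 in the controls. The ratio of mutants to controls was 1.03-fold (interval 0.802 to 1.33), and the log2 difference was -0.11 without mutant 5 and 0.20 without mutant 4.

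Cyp26c1, the third member of the P450 family, read 6.53, 6.61, 6.39, 6.43 and 6.35 in the mutants and 6.34, 6.67, 6.84, 6.60 and 6.61 in the controls. Control 1 was the lowest array, and 4 of the mutants lay below the other 4 controls. The log2 difference was -0.15 with an interval of -0.35 to 0.05 and a limma adjusted p of 0.698. It was -0.09 without control 3 and -0.22 without control 1 (interval -0.40 to -0.04, limma adjusted p 0.512). In same-number pairs the mutant was higher in 1 of 5 for Cyp26c1, for Cyp26a1, for Rdh10 and for Dhrs3, and in 4 of 5 for Cyp26b1.

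**Figure D2:**
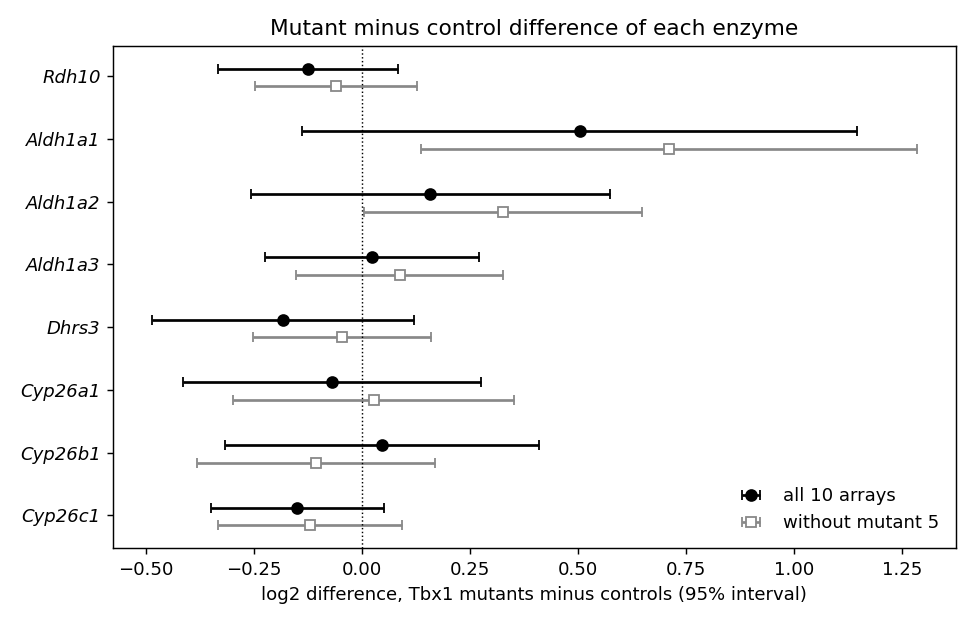
Log2 difference of each enzyme, Tbx1 mutants minus controls, from limma, with its 95% interval on the horizontal axis. Filled circles use all 10 arrays and open squares leave out mutant 5. With all arrays every interval crosses 0, and without mutant 5 those of Aldh1a1 and Aldh1a2 lie above 0, where their adjusted p values are 0.633 and 0.657.

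Mutant 5 was the lowest of the 10 arrays for 6 of the 8 enzymes (Rdh10, Aldh1a1, Aldh1a2, Aldh1a3, Dhrs3 and Cyp26a1) and the highest for Cyp26b1. Over genes above background it was the lowest array for 20.4% and the highest for 17.0%. The same array had the highest mean log2 signal of the hindbrain and neural tube markers, at 8.47, while the other mutants read 7.11 to 7.36 and the controls 7.00 to 7.69. Of these 10 markers 9 read above background on average, and En2 did not. The log2 of their summed linear signals, on which the brightest genes weigh most, was 11.32 to 12.43 in mutants and 10.93 to 11.64 in controls. The periotic mesenchyme markers averaged 9.91 in mutant 5, the lowest of all arrays, against 10.11 to 10.31 in the controls. The macrophage markers averaged 6.43 there, also the lowest, against 6.61 to 7.07 in the controls. Of these 8 macrophage genes 7 read above background, and Aif1 did not. The log2 of their summed linear signals was 9.61 to 10.31 in mutants and 9.81 to 10.34 in controls. The log2 of the summed linear mesenchyme signals was 13.96 to 14.42 in mutants and 14.16 to 14.49 in controls. Mutant 5 was also the lowest array in the mean of the cartilage markers (8.43, against 8.77 to 9.38 in the controls) and of the endothelium, meninges, skeletal myoblast and surface and pharyngeal epithelium markers. It was the highest in the ganglion neuron markers (9.02, against 7.79 to 8.79 in the controls) and in the neural crest and Schwann precursor markers. The part of these cell types in the enzyme values was not tested.

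**Figure D3:**
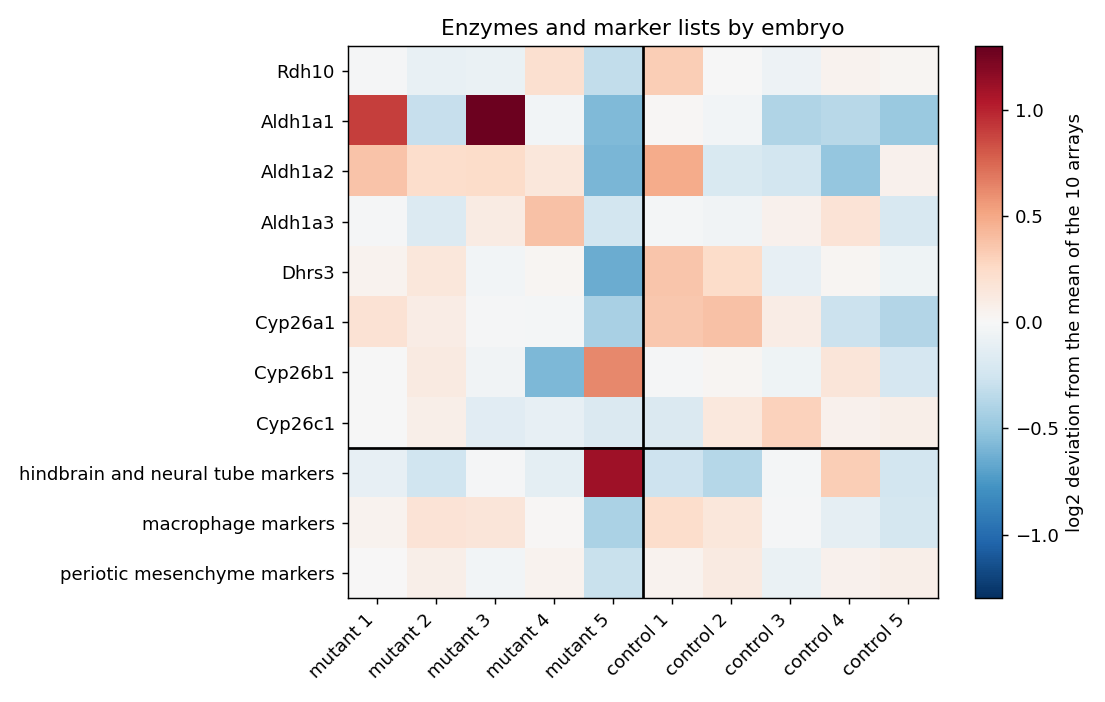
Deviation of each enzyme and of 3 marker lists from its mean over the 10 arrays (log2, red higher, blue lower), with mutants left of the vertical line and controls right of it. In the column of mutant 5 the hindbrain and neural tube markers and Cyp26b1 are high and 6 enzymes are low, and mutants 1 and 3 are high for Aldh1a1.

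The balance of synthesis and breakdown enzymes varied among mutants to both sides of the control range. It was taken within each array as the mean log2 signal of Rdh10, Aldh1a1, Aldh1a2 and Aldh1a3 minus that of the 3 Cyp26 genes. Since probe sets differ in affinity, only differences between embryos can be read from it. The balance was 1.60, 1.17, 1.80, 1.77 and 0.91 in mutants 1 to 5 and 1.50, 1.10, 1.08, 1.21 and 1.38 in controls 1 to 5. Mutants 1, 3 and 4 lay above all controls and mutant 5 lay below them. The mean was 1.45 ± 0.39 in mutants and 1.25 ± 0.18 in controls (SD, n = 5 each), a difference of 0.20. The SD of single embryos does not measure the uncertainty of this difference. The difference was 0.33 without mutant 5 and 0.11 without mutant 3. It was not tested. The synthesis mean was 8.56 ± 0.33 in mutants and 8.42 ± 0.15 in controls, and the breakdown mean was 7.11 ± 0.13 in mutants and 7.17 ± 0.14 in controls. Without Aldh1a1, a choice made after its values were seen, the balance differed by 0.08, and with signals summed on the linear scale by 0.06. In each of these definitions 1 mutant lay above all controls, against 3 in the first. With Dhrs3 counted among the breakdown enzymes the balance differed by 0.23, and without Rdh10 by 0.29. In each of those 3 mutants lay above all controls.

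**Figure D4:**
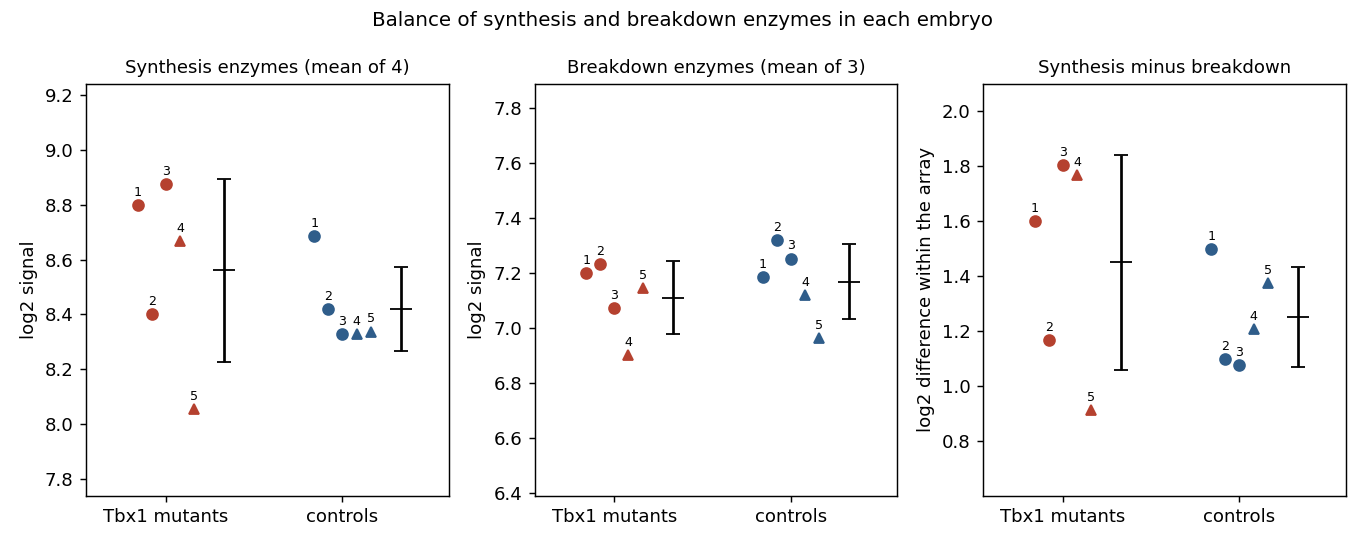
Mean log2 signal of the 4 synthesis enzymes, of the 3 breakdown enzymes, and their difference within each array, in Tbx1 mutants (red, left) and controls (blue, right). Numbers are replicate numbers, circles are arrays 1 to 3, triangles arrays 4 and 5, and bars give the mean and SD. Mutants 1, 3 and 4 lie above and mutant 5 below all controls in the balance.

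Several enzymes were among the more variable genes within genotype. The pooled SD of Aldh1a1 within groups was 0.59, above that of 99.3% of the 14298 genes above background, whose median was 0.13. It was 0.38 for Aldh1a2 (97.0%), 0.32 for Cyp26b1 (95.5%) and 0.30 for Cyp26a1 (94.5%). For Cyp26b1 the SD was 0.43 in mutants and 0.14 in controls. For Cyp26a1, with both genotypes together, it was 0.18 in arrays numbered 4 and 5 and 0.16 in those numbered 1 to 3. Cyp26c1 was nearest to the typical gene, with 0.15 (59.6%). Between the highest and the lowest embryo the signal differed 3.62-fold for Aldh1a1 and 1.41-fold for Cyp26c1.

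Pairs of enzymes were compared over the 10 arrays, and 0 of 28 pairs passed after Benjamini-Hochberg adjustment of permutation p values for either Pearson's r or Spearman's rho, while 4 had an unadjusted Pearson p under 0.05. Of the 28, 17 had a positive r. Cyp26a1 and Dhrs3, both known to be induced by retinoic acid, had r = 0.75 (permutation p 0.00377, adjusted 0.106) and rho = 0.73 (permutation p 0.0196, adjusted 0.274). Their r was 0.66 without mutant 5 and control 5, the arrays farthest from the Cyp26a1 median, and 0.82 in arrays numbered 1 to 3. Rdh10 and Dhrs3 had r = 0.76 (permutation p 0.0161, adjusted 0.225) and rho = 0.45 (permutation p 0.189, adjusted 0.614). Their r was 0.53 without mutant 5 and -0.01 without both mutant 5 and control 1. Cyp26b1 and Rdh10 had r = -0.70 (permutation p 0.0319, adjusted 0.250), rho = -0.43 (permutation p 0.219, adjusted 0.614), and r = -0.07 without mutants 4 and 5. Aldh1a2 and Dhrs3 had r = 0.64 (permutation p 0.0357, adjusted 0.250) and rho = 0.59 (permutation p 0.0806, adjusted 0.535), and r = 0.39 without mutant 5 and control 4. In arrays numbered 1 to 3, r was 0.76 for Rdh10 and Dhrs3, -0.20 for Cyp26b1 and Rdh10, and 0.38 for Aldh1a2 and Dhrs3. The neighbouring genes Cyp26a1 and Cyp26c1 had r = 0.14 (permutation p 0.705) and rho = 0.19 (permutation p 0.610).

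Rarb, which carries the repeat shown above, was set beside Cyp26a1 after its values were seen. It read 8.62, 8.58, 8.74, 8.61 and 8.28 in the mutants and 8.45, 8.46, 8.30, 8.44 and 8.54 in the controls. Mutants 1 to 4 lay above all controls and mutant 5 below them. The log2 difference of Rarb was 0.13 ± 0.08 (SE), with a limma adjusted p of 0.708. Over the 10 arrays Cyp26a1 and Rarb had r = 0.18 (permutation p 0.625) and rho = 0.19 (permutation p 0.609), and r = -0.16 without the 2 farthest arrays. In the 6 arrays numbered 1 to 3 their r was -0.42.

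The other genes of the retinoid pathway gave 0 calls as well. Of 30 measured further enzymes of retinol and retinal, 11 read higher and 19 lower in mutants, and 1 (higher) had an unadjusted limma p under 0.05. The genes of smallest p were Sdr16c5, a retinol dehydrogenase whose means of 3.54 in mutants and 3.38 in controls lie below background, and Rdh11, a retinal reductase, with a log2 difference of 0.14 ± 0.07 (SE). Of 11 measured genes of vitamin A transport and binding, 2 read higher and 9 lower. Their smallest p belonged to Rbp3, below background at 4.68 in mutants and 4.88 in controls, and to Crabp1, a cytoplasmic retinoic acid binding protein, with -0.14 ± 0.09 (SE). Of 10 measured receptors and coregulators 3 read higher and 7 lower. At an unadjusted limma p under 0.05, 3 were lower and 0 higher in mutants, where 3.11% of all genes were lower and 4.70% higher. These 3 were the retinoid X receptors Rxrb (-0.23 ± 0.08), Rxrg (-0.34 ± 0.13) and Rxra (-0.21 ± 0.08, SE), with limma adjusted p values of 0.575, 0.575 and 0.586. The mean log2 signal of the receptor and coregulator list was lowest in mutant 5, at 8.32. It was 8.44 to 8.64 in the other mutants and 8.51 to 8.71 in the controls. Differences without mutant 5 are not given for these receptors.

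Of 22 measured retinoic acid responsive genes, 8 read higher and 14 lower, and 1 (Dlx5, lower) had an unadjusted p under 0.05. The median log2 difference of this list was -0.04. Of its genes, Rarb and Nrip1 are also counted among the receptors and coregulators, and Crabp2 and Stra6 among transport and binding. Dlx5, a homeobox factor of the otic vesicle, had -0.44 ± 0.19 (SE, limma adjusted p 0.589), with 8.39 to 9.55 in mutants and 9.20 to 9.51 in controls. Meis2, a homeobox cofactor, had 0.18 ± 0.08 (SE, limma adjusted p 0.617). The median differences of the remaining lists were -0.01 for the enzymes, -0.04 for transport and binding and -0.09 for receptors and coregulators.

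The genes most like each enzyme in pattern were taken as the 3 with the highest Pearson r over the 10 arrays among the 14298 genes above background, a description with no test. For Dhrs3 they were Myg1 (0.97), Tns2 (0.97) and Col26a1 (0.96), and for Rdh10 Ttl (0.97), Bace2 (0.95) and Chrnb1 (0.95). For Aldh1a2 they were Cep57l1 (0.96), Kif23 (0.96) and Cntln (0.94). For Cyp26a1 they were Cyp2d22 (0.94), Ksr1 (0.93) and Bmp1 (0.93), and for Cyp26c1 Ccn6 (0.95), Fermt3 (0.94) and Acads (0.94). Each of these likenesses stayed at 0.77 or more without the 2 arrays farthest from the median of the enzyme. The genes were picked by their r over these same arrays, so this is no independent check of a likeness. For Cyp26b1 the genes were Nrsn2 (0.94), Tmem63b (0.92) and Ttc33 (0.91), and Ttc33 dropped to 0.48. For Aldh1a1 they were Ccdc116, Ostf1 and Polr2m (0.90 to 0.91), of which Ccdc116 dropped to 0.19 without mutants 1 and 3. For Aldh1a3 they were Mgll (0.88), Pdgfrl (0.88) and Anp32-ps (0.86), which stood at 0.65 to 0.78.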

How the data were processed

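The deposited values are log2 signals that the authors made with RMA, and the submitters' processing notes name the program Affymetrix Expression Console, version 1.1. The log2 scale is taken from the values' range. RMA sets all arrays to 1 distribution, so a shift shared by all genes is not seen. RNA was labelled from 300 ng of total RNA, per the labels. For the arrays, a probe file version and a genome build are not given in the sources used here. Precision depends on how many arrays there are and on the spread between embryos.

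Of 35557 probe sets, 21789 had 1 gene symbol, 1621 several and 12147 none, and gene ids matched 21698 of the 21789 to RefSeq (GRCm38.p6). Where a gene had several probe sets, the one of highest mean stood for it. All 21789 were tested with limma 3.58.1 in R 4.3.3 (lmFit, eBayes with trend, two-sided), with Benjamini-Hochberg adjustment and a threshold of 0.05. Exact two-sided permutations over the 252 splits cannot go below p = 0.00794, and correlations used 100000 permutations. The fit was tested on simulated data.

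Same-number arrays had deviations from group means that correlated at 0.122 to 0.247, each above 0.1. This met the criterion used for pairing but does not establish pairs. Unequal numbers reached 0.382, and only 2 of 5 mutants had their best match in the control of equal number. Unless stated otherwise, all differences, intervals and p values given are from the fit without pairs. The pairs enter as an alternative and in counts of signs. The members, lists and tests were chosen with earlier results of these data known. The genes named are the 8 enzymes, Tbx1, the 2 of smallest p in each pathway list and the 3 most like each enzyme. Genes shared between pathway lists are named as such. Rarb, Rxra and Fos were added after their values were seen, as were the comparisons between array numbers. The alternatives were other eBayes settings, array weights, further normalization, filters, covariates (sex, read from Xist and Y-linked genes, with 1 male among the mutants and 2 among the controls), subsets of arrays and leaving out each array.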

Additional observations from a re-analysis of the deposited data

Results flagged for a closer look

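Among 18 groups of 5 values (8 enzymes and the balance, in mutants and in controls), 2 held an array far from the other 4 by Dixon's criterion, where chance marks about 1 in 20. Both lay in mutant 5, where Aldh1a2 had a log2 signal of 9.456 and Dhrs3 one of 7.974, each the lowest of the mutants.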

How the results depend on the processing

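No enzyme was called in any of the 22 alternatives run for each, where 5 of 176 differences had an unadjusted p under 0.05 and the lowest adjusted p was 0.510. The replicate block (log2 differences of 0.50 for Aldh1a1, -0.18 for Dhrs3 and -0.07 for Cyp26a1) changed no call, and it called the same number of genes. Since each number holds a mutant and a control, it cannot change a difference, only its SE and p value. The SE of Cyp26a1 fell from 0.16 to 0.09. Those of Aldh1a1, Aldh1a2, Aldh1a3, Rdh10 and Dhrs3 also fell, while those of Cyp26b1 and Cyp26c1 rose. Unadjusted limma p values were 0.0625 for Aldh1a1 and 0.0832 for Dhrs3, against 0.114 and 0.211 without pairs. Over all genes 1941 had an unadjusted limma p under 0.05, against 1559. The sign turned in 12 of the 176. It could not turn with the replicate block, the array set as covariate, other eBayes settings, the background filter or all probe sets. These leave each difference as it was in the main fit, so the 176 overstate how often a turn could occur. Cyp26a1 turned with array weights (0.053) and in arrays numbered 4 and 5 (0.11), and Aldh1a3 with sex as a covariate (-0.00138) and in arrays numbered 1 to 3 (-0.023). Leaving out single arrays gave -0.174 to 0.026 for Cyp26a1, -0.11 to 0.20 for Cyp26b1 and -0.071 to 0.086 for Aldh1a3. It gave 0.25 to 0.71 for Aldh1a1, 0.05 to 0.33 for Aldh1a2, -0.24 to -0.05 for Dhrs3, -0.19 to -0.06 for Rdh10 and -0.22 to -0.09 for Cyp26c1. Over all genes 2 were called, 1 in arrays numbered 1 to 3 (1229 at an unadjusted p under 0.05), 0 by limma in arrays numbered 4 and 5 (808) and 0 among probe sets above background (1325); fewer arrays or genes enter these. The balance differed by 0.11 to 0.33 without single arrays and by 0.05 to 0.30 in the other alternatives. The next-highest probe set was not run, since each enzyme has 1, and Ddx3y, named for the sex reading, had no probe set with 1 symbol. Log2 signals near background compress differences, which bears most on Aldh1a1 and Cyp26c1.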
